A study of Mus musculus with 10 samples.

Results

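The mammalian circadian clock is a feedback loop of transcription that runs in most cells of the body, white fat included. The activators BMAL1 (gene Arntl) and CLOCK bind E-box elements and switch on the Per and Cry genes, whose proteins return to repress them. In a further loop the nuclear receptors REV-ERBα (Nr1d1) and REV-ERBβ (Nr1d2) repress Arntl through ROR elements, and DBP acts on its targets through D-box elements, so Arntl and the E-box targets peak at opposite times of day. The 10 genes described here are Nr1d1, Nr1d2, Per1, Per2, Per3, Cry1, Arntl, Clock, Dbp and Ciart, taken by symbol from 28987 listed genes. They were chosen with their TPM values in the 10 libraries known, so their levels and differences are given as a description without p-values, and no statement rests on how many of them differ.

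RNA sequencing measured cultures whose source is labelled primary white adipocytes, grown to confluence after collagenase digestion of inguinal fat pads (male C57BL/6 mice, 6 to 8 weeks old), in 5 groups of 2 libraries. The groups had 24 h of LPS (bacterial lipopolysaccharide, 100 ng/ml), norepinephrine (the sympathetic transmitter, 1 mM), the recombinant TNF-family ligands BAFF or APRIL (500 ng/ml each), or saline. Neither the origin of the replicates (separate mice, separate cultures or neither) nor the time of day of collection is given, and p-values for other genes measure only the spread between these libraries. All 4 comparisons below share the same 2 saline libraries. TPM is a relative abundance corrected for transcript length, so levels can be compared between genes, but no counts or sequencing depth were given. In such bulk libraries fewer cells of a type and less RNA per cell cannot be told apart.

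The 2 libraries labelled APRIL stood apart. They correlated with the other 8 at 0.850 to 0.886 across 14166 genes on the log2 scale, against 0.948 to 0.991 among the other 8. Although the labels give male mice, the sum of 4 genes of the Y chromosome (Uty, Kdm5d, Ddx3y, Eif2s3y) was 0.489 and 0.775 TPM in these, as opposed to 93.8 to 123 TPM elsewhere. All results on these libraries are therefore given under "the libraries labelled APRIL", and the other comparisons were also computed without them. Whether these libraries differ from saline by treatment or by material was not tested. Adipocyte markers were present: Adipoq stood at 925 and 1062 TPM with saline, while Lep stayed under 1 TPM in every library. The summed 6 adipocyte markers reached 4775 and 5245 TPM with LPS, 13340 and 13678 TPM with norepinephrine, 6567 and 8137 TPM with BAFF, 4486 and 2041 TPM in the APRIL-labelled pair and 6857 and 7902 TPM with saline. The 6 macrophage markers summed to 268 to 1419 TPM, and the library numbered 1 had the larger sum in each of the 5 groups, while the library numbered 2 had the larger skeletal muscle sum in the 4 groups not labelled APRIL. The 6 fibroblast markers summed to 1698 to 11887 TPM and the 5 smooth muscle markers to 373 to 1707 TPM, both lowest in the libraries labelled APRIL. Endothelial markers summed to 4.50 to 16.6 TPM and skeletal muscle markers to 11.95 to 137 TPM, and the T lymphocyte (up to 1.62 TPM), B lymphocyte (up to 2.68 TPM), epithelial (up to 0.267 TPM) and nerve markers (up to 3.97 TPM) stayed low, with Ms4a1 at 0 in every library.

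The promoters of some of the members hold clock elements, which differ between them. RefSeq windows ran from 250 bases before to 50 after the start site (GRCm38.p6, the mm10 assembly). They matched 9 of the 10 members with 13 windows, and Per2 had no window. Sites outside these windows were not searched. An E-box (CACGTG, on either strand) was found in Ciart, Cry1 and Per1, and in 7.15% of all 32851 windows. The variant CACGTT, which reads AACGTG on the opposite strand, was found in Cry1 and Nr1d1 (4.68% of all windows). The D-box, searched as TTATGTAA and TTACGTAA, was found only in Per3 among the members (1.06% of all windows), and the ROR element (RORE) only in Arntl (0.384%). The cAMP response element TGACGTCA was in no member window, against 1.79% of all windows. The windows of Dbp, Nr1d2 and Clock held no match to any of these elements. No 2 matches overlapped. A match is a description of letters, not of binding. The stretches below hold the matches in Ciart, Cry1, Per1, Per3 and Arntl. The match in Nr1d1, which begins 28 bases before its start site, is not shown. Capitals mark the E-boxes in Ciart (chr3:95882229-95882478, minus strand), Cry1 (chr10:85185055-85185304, minus strand, with the variant box upstream of the E-box) and Per1 (chr11:69098699-69098948, plus strand). They mark 2 D-boxes in Per3 (chr4:151044666-151044915, minus strand) and the RORE in Arntl (chr7:113207528-113207557, plus strand). The Arntl RORE begins at base 27 after its start site, and the other 4 stretches are the 250 bases before the start.
Ciart: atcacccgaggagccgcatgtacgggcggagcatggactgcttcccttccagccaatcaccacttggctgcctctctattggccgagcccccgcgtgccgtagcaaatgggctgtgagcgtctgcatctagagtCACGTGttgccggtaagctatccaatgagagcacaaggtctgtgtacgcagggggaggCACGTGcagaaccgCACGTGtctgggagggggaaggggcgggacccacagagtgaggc
Cry1: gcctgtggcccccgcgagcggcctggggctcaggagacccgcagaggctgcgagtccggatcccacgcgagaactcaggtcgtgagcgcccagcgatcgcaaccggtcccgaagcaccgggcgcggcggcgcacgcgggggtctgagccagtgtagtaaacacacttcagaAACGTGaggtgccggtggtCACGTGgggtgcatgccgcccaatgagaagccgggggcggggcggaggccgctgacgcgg
Per1: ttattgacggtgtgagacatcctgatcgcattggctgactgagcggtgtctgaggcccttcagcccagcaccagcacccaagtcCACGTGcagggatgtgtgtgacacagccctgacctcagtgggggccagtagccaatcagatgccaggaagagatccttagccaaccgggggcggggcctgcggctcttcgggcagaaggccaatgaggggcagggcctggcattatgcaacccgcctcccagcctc
Per3: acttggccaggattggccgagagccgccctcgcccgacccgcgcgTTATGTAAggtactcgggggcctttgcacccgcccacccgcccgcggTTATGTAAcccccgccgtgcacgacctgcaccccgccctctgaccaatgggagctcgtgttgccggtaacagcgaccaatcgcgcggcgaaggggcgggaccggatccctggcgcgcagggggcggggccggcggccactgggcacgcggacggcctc
Arntl: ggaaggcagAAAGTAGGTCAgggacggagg

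Every member was above 1 TPM in all 10 libraries, so none entered the fit through a single group. With saline their levels spanned from Dbp, at 38.9 and 38.4 TPM, down to Per2, at 2.62 and 2.91 TPM. Between them came Nr1d1 (15.2 and 13.9 TPM), Nr1d2 (13.2 and 13.6 TPM), Per3 (12.7 and 12.6 TPM), Per1 (12.4 and 8.64 TPM), Clock (8.44 and 9.11 TPM), Arntl (6.45 and 6.19 TPM), Cry1 (4.30 and 4.68 TPM) and Ciart (3.48 and 3.73 TPM). Neighbours in this order were separated in both libraries except Per1 and Clock, whose libraries overlapped. The 2 saline libraries differed by at most 1.11-fold for 9 of the members and by 1.43-fold for Per1. Some members share sequence with other genes, which limits how surely reads are assigned to them. Of the 31-base words in its transcripts, Dbp (mm10, chromosome 7, 45705088 to 45710203) shared 16.9% with Sphk2 on the opposite strand, and Nr1d1 (chromosome 11, 98767932 to 98775333) shared 7.85% with Thra on the opposite strand. Ciart shared 20.8% with Gm9176 and Nr1d2 9.51% with AC170187.1. The other members shared 0.652% or less, and whether library preparation kept strand is not given in the sources used here.

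**Figure D1:**
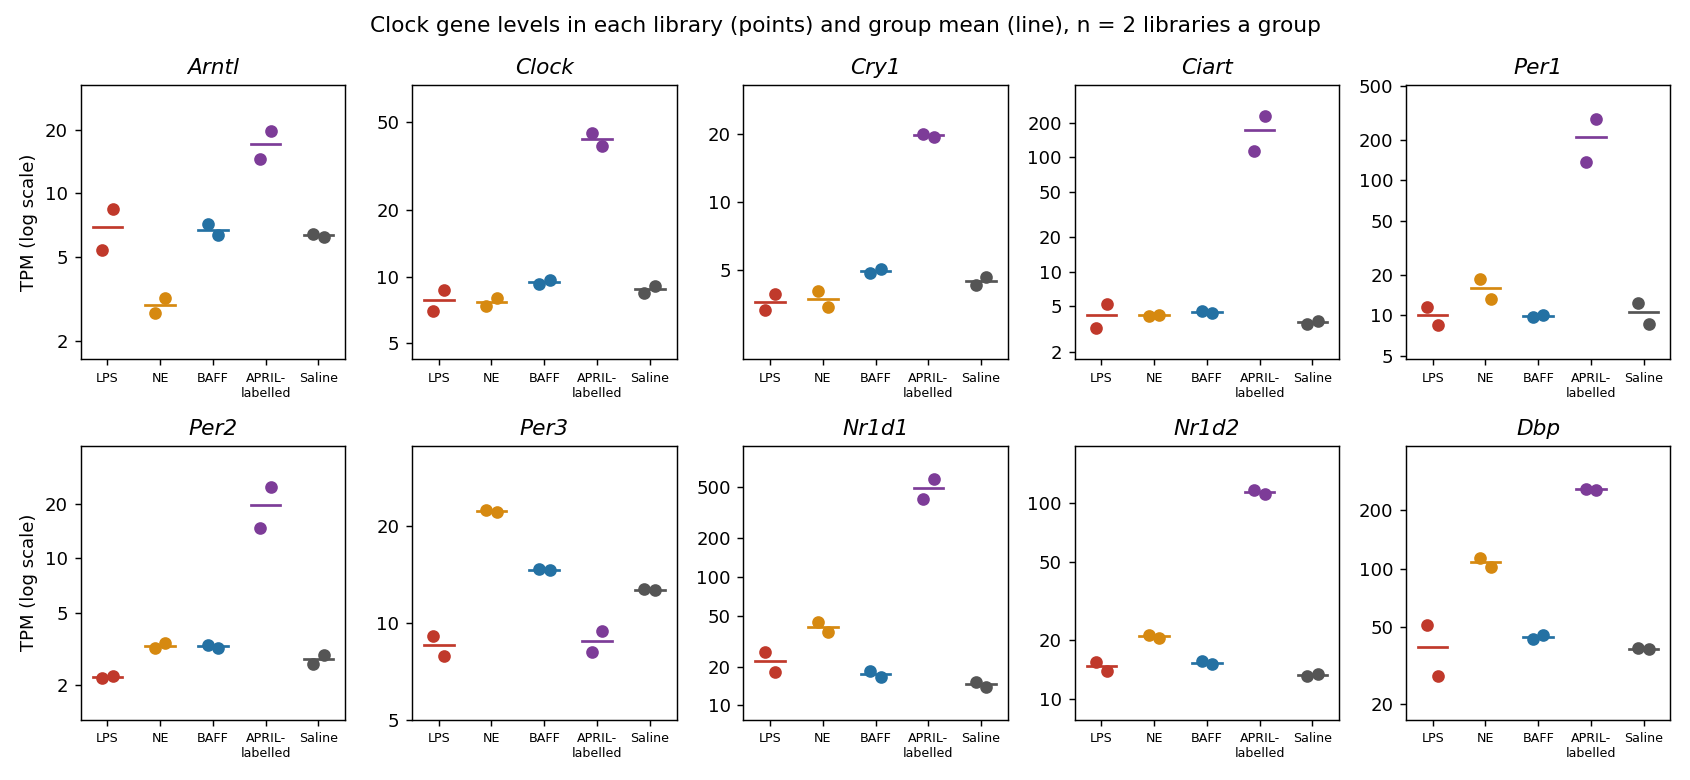
TPM of each of the 10 clock genes (log axis, own scale in each panel) in the 2 libraries (points) of the LPS, norepinephrine (NE), BAFF, APRIL-labelled and saline groups, with the group mean as a line. Norepinephrine libraries do not overlap saline for any of these genes and lie farthest from it for Nr1d1, Dbp, Arntl and Per3. The libraries labelled APRIL are the highest for all genes but Per3.

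Norepinephrine against saline asks how adrenergic stimulation acts on these cultures. Nr1d1, Nr1d2, Per3 and Dbp were higher and Arntl was lower, while the other members, repressors and the activator Clock among them, differed less. Nr1d1, which encodes the heme-binding repressor REV-ERBα, had 44.3 and 37.4 TPM with norepinephrine, against 15.2 and 13.9 TPM with saline. Dbp, a PAR-domain bZIP activator and a direct BMAL1-CLOCK target, had 114 and 103 TPM with norepinephrine, against 38.9 and 38.4 TPM with saline. Both norepinephrine libraries were above all 6 LPS, BAFF and saline libraries for these genes, as they were for 15.1% of all genes, and the group means were 2.81-fold and 2.80-fold those of saline. On the log2(TPM + 1) scale, which understates the change of low genes, the differences were 1.43 ± 0.22 for Nr1d1 and 1.46 ± 0.24 for Dbp (± SE of the limma fit). The partner genes moved differently from each other: Thra stood at 75.3 and 65.3 TPM with norepinephrine, against 55.3 and 51.0 TPM with saline, and Sphk2 at 10.03 and 9.48 TPM, against 12.2 and 11.01 TPM.

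Per3, the Period gene whose loss affects the mouse clock least, had 22.4 and 22.1 TPM with norepinephrine, against 12.7 and 12.6 TPM with saline (log2 difference 0.77 ± 0.11). Nr1d2, the REV-ERBβ paralogue of Nr1d1, had 21.2 and 20.7 TPM with norepinephrine, against 13.2 and 13.6 TPM with saline (log2 difference 0.61 ± 0.10). The libraries of a group lay within 1.03-fold of each other for both genes in both groups, and the groups did not overlap. Arntl, which encodes the activator BMAL1, stood furthest below saline of the members. It had 2.71 and 3.20 TPM with norepinephrine, against 6.45 and 6.19 TPM with saline (log2 difference -0.89 ± 0.21). Its norepinephrine libraries were below all 6 LPS, BAFF and saline libraries, as for 9.8% of all genes. By level it ranked 10 among the members with norepinephrine, where its libraries overlapped those of Per2, and 7 with saline.

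The other 5 members differed less. Per1, the Period gene known to respond within hours to cAMP and glucocorticoid, had 18.5 and 13.1 TPM with norepinephrine. With saline it had 12.4 and 8.64 TPM. Its log2 difference was 0.55 ± 0.34, with an SE that ignores the library numbers. Between libraries numbered 1 the difference was 0.54, and between those numbered 2 it was 0.55. Both norepinephrine libraries were above all 6 LPS, BAFF and saline libraries, as for 15.1% of all genes. Per2 (3.18 and 3.39 TPM, against 2.62 and 2.91 TPM with saline) and Ciart, the CHRONO repressor (4.12 and 4.20 TPM, against 3.48 and 3.73 TPM), were slightly higher with norepinephrine. The repressor Cry1 (4.04 and 3.43 TPM, against 4.30 and 4.68 TPM with saline) and Clock (7.39 and 7.99 TPM, against 8.44 and 9.11 TPM) were slightly lower. Their log2 differences lay between -0.21 ± 0.12 (Cry1) and 0.19 ± 0.21 (Per2), and the libraries of each stayed on 1 side of saline.

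Over all 14166 genes, limma called 0.614% higher and 0.0847% lower with norepinephrine at an adjusted p under 0.05, and 34% and 22.9% had libraries wholly above or below saline. Of the members, 4 were called higher (Nr1d1, Nr1d2, Per3 and Dbp), and Arntl was not called. Libraries of 7 members lay wholly above saline and of 3 wholly below, and these counts describe the genes as chosen. The 4 calls were not stable. With any 1 of the 4 libraries left out, with median-ratio scaling or with a pseudocount of 0.1, 0 members were called, and 2 were with a pseudocount of 0.5, 1 with no filter and 2 from the 4 libraries alone. Over all genes, leaving out a library left 0 or 1 called in place of 99. Without the libraries labelled APRIL 843 genes were called, with 4 members among them. The differences themselves held: leaving out each library in turn, that of Dbp stayed between 1.38 and 1.54, Nr1d1 between 1.31 and 1.55, Per3 between 0.76 and 0.78 and Arntl between -0.98 and -0.80. Beside this, the summed adipocyte markers were at 13340 and 13678 TPM with norepinephrine, against 6857 and 7902 TPM with saline. Of these markers 3 of 6 lay wholly above saline and 1 wholly below, Lep, which stayed under 1 TPM. Most of the sum was Fabp4, at 11391 and 11802 TPM with norepinephrine, against 5452 and 6287 TPM with saline. Adipoq overlapped saline, at 918 and 934 TPM, against 925 and 1062 TPM. Of the smooth muscle markers 1 of 5 lay wholly above and 4 wholly below saline, with sums of 871 and 1004 TPM with norepinephrine, against 1451 and 1526 TPM with saline. At most 1 marker of any other cell type list lay wholly above and 1 wholly below. The part of these markers in the clock gene differences was not tested.

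**Figure D2:**
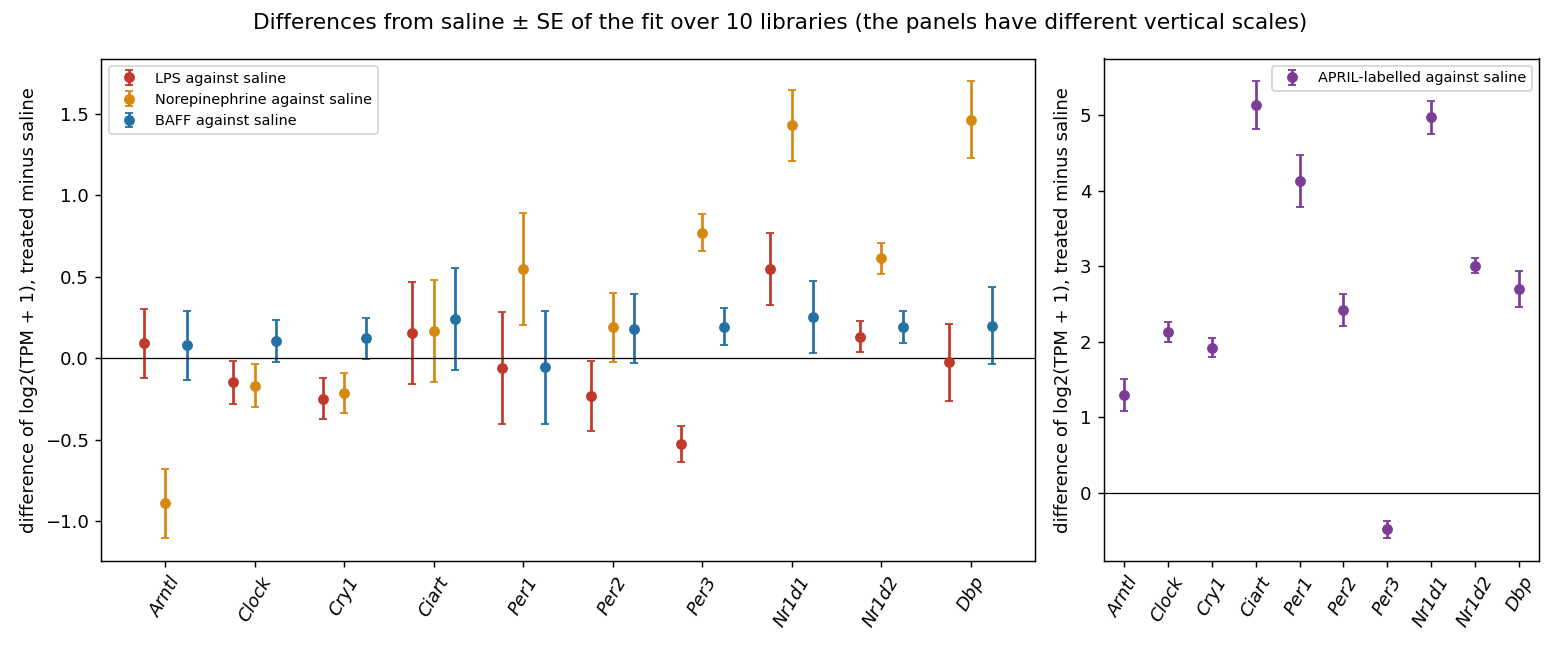
Difference of log2(TPM + 1) from saline for each clock gene (points) with the SE of the fit over 10 libraries (bars), for LPS, norepinephrine and BAFF on the left and the libraries labelled APRIL on the right, on different vertical scales. With norepinephrine Dbp and Nr1d1 lie near 1.4 and Arntl at -0.89; Per3 is the 1 gene below 0 in the libraries labelled APRIL.

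LPS against saline asks how a bacterial inflammatory stimulus acts on the cultures, and for 8 of the members, all but Per1 and Per2, the LPS pair was the widest apart of the 4 groups not labelled APRIL. Per3 was lower in both: it had 9.10 and 7.89 TPM with LPS, against 12.7 and 12.6 TPM with saline (log2 difference -0.53 ± 0.11). Nr1d1 was higher in both, at 26.1 and 18.0 TPM with LPS, against 15.2 and 13.9 TPM with saline (0.55 ± 0.22; 0.29 without LPS replicate 1 and 0.80 without LPS replicate 2). Per3 thus lay on opposite sides of saline with norepinephrine and with LPS, while Nr1d1 lay above saline with both. Cry1 had 3.32 and 3.92 TPM with LPS, against 4.30 and 4.68 TPM with saline, and Per2 had 2.17 and 2.23 TPM, against 2.62 and 2.91 TPM, both pairs below saline. Nr1d2 had 15.6 and 13.9 TPM with LPS, against 13.2 and 13.6 TPM with saline.

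For Dbp the 2 LPS libraries fell on either side of saline, at 51.4 and 27.9 TPM, against 38.9 and 38.4 TPM with saline (log2 difference -0.03 ± 0.24). Arntl did so in the other sense, at 5.42 and 8.46 TPM with LPS, against 6.45 and 6.19 TPM with saline. Per1 (11.5 and 8.48 TPM), Clock (6.99 and 8.71 TPM) and Ciart (3.21 and 5.25 TPM) likewise overlapped saline or reached both sides of it. The LPS library with more Dbp also had more Nr1d1, Nr1d2, Per1 and Per3, and less Arntl, Clock, Cry1, Ciart and Per2. The same library, numbered 1, had the larger sum of macrophage markers, 1419 TPM against 373 TPM in the other. The library numbered 1 had the larger sum in every other group too, with 1178 and 393 TPM in the saline pair. All 6 adipocyte markers lay wholly below saline with LPS, with sums of 4775 and 5245 TPM, against 6857 and 7902 TPM with saline. So did 4 of 5 endothelial and 4 of 5 smooth muscle markers, while 3 of 6 fibroblast markers lay wholly above saline and 1 wholly below. The part of these cell type markers in the clock gene values was not tested. Limma called 2.87% of all genes higher and 0.932% lower with LPS. Of the members 0 were called higher and 1 lower, Per3, and that call was lost on leaving out any 1 of the 4 libraries, with a pseudocount of 0.1, with no filter, with median-ratio scaling, from the 4 libraries alone and with the replicate number as a block. Libraries of 2 members lay wholly above saline and of 3 wholly below, against 24.2% and 25.5% of all genes. Without LPS replicate 1 the log2 difference of Dbp was -0.46 and without LPS replicate 2 it was 0.40, so no direction is given for it.

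BAFF against saline addresses the ligand named in the series title. All members stood within 1.23-fold of saline by group mean. The largest differences were those of Nr1d1, at 18.6 and 16.5 TPM with BAFF, against 15.2 and 13.9 TPM with saline (0.25 ± 0.22), and Ciart, at 4.51 and 4.37 TPM, against 3.48 and 3.73 TPM (0.24 ± 0.31). Dbp had 43.5 and 45.4 TPM with BAFF, against 38.9 and 38.4 TPM with saline (0.20 ± 0.24), and Per3 had 14.7 and 14.5 TPM, against 12.7 and 12.6 TPM (0.19 ± 0.11). Libraries of 8 members lay wholly above saline, as did those of 40.4% of all genes, and the median of all log2 differences was 0.11 in this comparison. Median-ratio scaling moved that median by -0.11. Relative to the median the members lay between -0.16 (Per1) and 0.15 (Nr1d1), and under that scaling Arntl (-0.03) and Clock (-0.0052) changed sign. Limma called 0.0141% of all genes with BAFF. Arntl, at 7.14 and 6.33 TPM with BAFF, and Per1, at 9.71 and 10.1 TPM, overlapped saline.

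In the libraries labelled APRIL, 9 of the 10 members were far above saline and Per3 was below it. These libraries differed from saline in 58.1% of all genes by limma, 33.1% higher and 25% lower, so the 9 members called higher and the 1 called lower stand in a comparison in which most genes differed. The largest differences were those of the repressors Ciart, Nr1d1 and Per1. Ciart had 112 and 230 TPM in the libraries labelled APRIL, against 3.48 and 3.73 TPM with saline, a ratio of means of 47.4 (log2 difference 5.13 ± 0.31). Nr1d1 had 404 and 586 TPM, against 15.2 and 13.9 TPM with saline (4.97 ± 0.22), and was the most abundant member there. Per1 had 136 and 285 TPM, against 12.4 and 8.64 TPM with saline (4.12 ± 0.34). For Ciart and Per1 the library numbered 2 held more than the other by 2.04-fold and 2.09-fold, which is small beside their distance from saline.

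The remaining members followed at smaller ratios. Nr1d2 had 118 and 111 TPM in the libraries labelled APRIL, against 13.2 and 13.6 TPM with saline (3.01 ± 0.10), and Dbp had 257 and 255 TPM, against 38.9 and 38.4 TPM (2.70 ± 0.24). Per2 had 14.8 and 24.7 TPM, against 2.62 and 2.91 TPM with saline (2.42 ± 0.21). Clock had 44.7 and 39.0 TPM, against 8.44 and 9.11 TPM (2.13 ± 0.13), and Cry1 had 20.1 and 19.4 TPM, against 4.30 and 4.68 TPM (1.92 ± 0.12). Arntl, at 14.6 and 19.8 TPM, against 6.45 and 6.19 TPM with saline, differed least among these (1.30 ± 0.21). Per3 had 8.11 and 9.43 TPM in the libraries labelled APRIL, against 12.7 and 12.6 TPM with saline (-0.49 ± 0.11). Wholly below saline in these libraries were also 4 of 6 adipocyte, 5 of 6 fibroblast, 5 of 5 smooth muscle, 3 of 5 endothelial and 1 of 6 macrophage markers. Wholly above saline were 3 of 3 nerve, 2 of 4 B lymphocyte, 2 of 4 T lymphocyte and 2 of 4 epithelial markers, at the low sums given above. The part of these markers in the clock gene differences was not tested. The Per3 call was lost from the 4 libraries alone, and the other 9 were kept under every alternative run. The partner gene Thra was lower in these libraries, at 26.3 and 19.4 TPM, against 55.3 and 51.0 TPM with saline, and Sphk2 was higher, at 23.6 and 28.2 TPM, against 12.2 and 11.01 TPM.

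Levels of pairs of members were also set against each other within a library, and not all pairs computed are shown. Dbp stood at 42.1 and 32.1 times Arntl with norepinephrine, at 9.49 and 3.30 times with LPS, at 6.09 and 7.17 times with BAFF, at 17.7 and 12.9 times in the libraries labelled APRIL and at 6.03 and 6.21 times with saline. Norepinephrine therefore gave the highest ratio of this pair, with Dbp higher and Arntl lower, while both genes were higher in the libraries labelled APRIL. Nr1d1 stood highest over Arntl in the libraries labelled APRIL, at 27.7 and 29.6 times, against 16.3 and 11.7 times with norepinephrine. Per3 stood highest over Arntl with norepinephrine, at 8.27 and 6.92 times, against 0.557 and 0.477 times in the libraries labelled APRIL. Per1 stood at 0.823 and 0.594 times Per3 with norepinephrine, at 1.27 and 1.07 times with LPS, at 0.660 and 0.696 times with BAFF, at 16.8 and 30.2 times in the libraries labelled APRIL and at 0.974 and 0.685 times with saline. The norepinephrine, BAFF and saline ratios overlapped, the LPS ratios lay above these, and those of the libraries labelled APRIL lay highest. Across the 8 libraries not labelled APRIL, the highest library exceeded the lowest by 4.09-fold for Dbp, 3.19-fold for Nr1d1, 3.12-fold for Arntl and 2.84-fold for Per3, and by 1.39-fold for Clock, the least variable member.

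**Figure D3:**
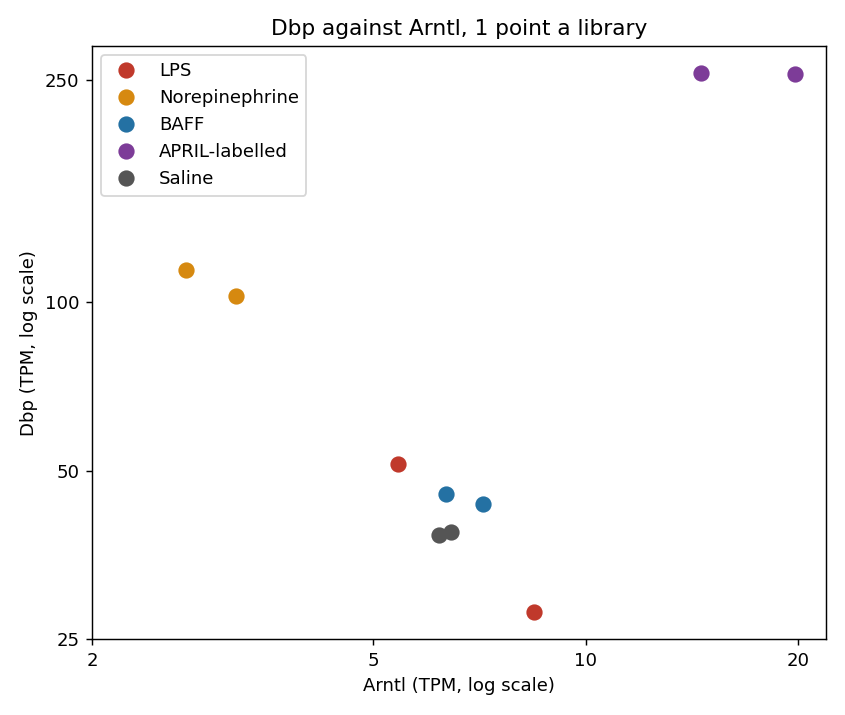
Dbp against Arntl in TPM (log axes), 1 point a library, coloured by group. The norepinephrine libraries lie at high Dbp and low Arntl, the 2 LPS libraries lie on either side of saline and BAFF, and the libraries labelled APRIL are high in both.

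Over those 8 libraries the log2 levels of Dbp correlated at -0.98 with Arntl, 0.96 with Nr1d2, 0.91 with Nr1d1, 0.86 with Per1 and 0.85 with Per3, and at -0.16 with Ciart (Pearson). With the norepinephrine pair left out, a choice made after seeing the data, they were -0.86 with Arntl, 0.64 with Nr1d2, 0.44 with Nr1d1, 0.59 with Per1, 0.44 with Per3 and -0.66 with Ciart over 6 libraries. The libraries of a group share their treatment, and the values are a description. Among 9278 other genes with a mean of at least 5 TPM, those most like Dbp were Phospho1 (0.997), Ypel2, Afg3l2, Eif4a2 and Pold4 (0.988), and those most opposed were Wfdc21 (-0.98), Plk4, Dnajb11, Lysmd3 and Jpt2. Phospho1, a phosphatase, averaged 161 TPM with norepinephrine and 48.0 TPM with saline. Most like Arntl were Lysmd3 (0.992), Pdia6, Dnajb11, Tuba1c and Flrt2, and most opposed were Phospho1 (-0.99), Eif4a2, Ipp, Ndufa6 and Cox6c. The 2 norepinephrine libraries lie apart from the other 6 in both Dbp and Arntl.

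The wider clock pathway was read from a list of 32 further genes, 31 of them tested, in 7 role groups. With norepinephrine limma called 0 of 31, with 7 at an unadjusted p under 0.05 (17.6% of all genes). Those 7 were the E-box repressor Bhlhe40 (DEC1), at 132 and 121 TPM with norepinephrine, against 86.7 and 72.9 TPM with saline (adjusted p = 0.0858 by limma), with Cry2, Rora, Tef, Csnk1d and Ncor1 higher and Nfil3 lower. Nfil3, which competes with DBP at D-boxes, had 28.7 and 27.8 TPM with norepinephrine, against 36.9 and 33.9 TPM with saline (adjusted p = 0.152 by limma). Rora, an activator at the ROR element, had 11.7 and 9.80 TPM with norepinephrine, against 6.96 and 5.69 TPM with saline (adjusted p = 0.101 by limma). With the replicate number as a block 167 genes were called with norepinephrine, 1 of the 31 among them, Bhlhe40 (log2 difference 0.67, adjusted p = 0.0398 by limma). With the block the adjusted p by limma was 0.0627 for Rora and 0.0938 for Bhlhe41. For Bhlhe41 (log2 difference 0.68) it was 0.353 by limma without the block. With LPS the block called 0 of the 31. The counts at an unadjusted p are from the fit without the block. Without the libraries labelled APRIL 2 of the 31 were called with norepinephrine, Csnk1d and Ncor1. With LPS limma called 0 of 31, with 2 at an unadjusted p under 0.05, Rora and Csnk1d (16.5% of all genes), and with BAFF 0 of 31, with 0 at an unadjusted p under 0.05 (2.84% of all genes).

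In the libraries labelled APRIL 20 of the 31 were called higher than saline and 0 lower by limma, against 33.1% and 25% of all genes. The 20 include Hlf, which passed the filter only through these libraries. The median log2 difference of the 31 was 0.90, against 0.08 over all genes tested. All 3 further E-box repressors were higher. Bhlhe40 had 557 and 534 TPM in the libraries labelled APRIL, against 86.7 and 72.9 TPM with saline (log2 difference 2.76, adjusted p = 1.16e-05 by limma). The others were Bhlhe41 (2.02) and Cry2 (0.92). All 3 D-box factors were higher. Hlf had 12.8 and 20.2 TPM, against 0.724 and 0.775 TPM with saline (log2 difference 3.29). It reached 1 TPM in 3 of the 10 libraries, so it was tested through this group. The others were Tef (1.31) and the repressor Nfil3 (0.90). Of the ROR receptors, Rora was higher (2.12). Of the 11 kinases and ubiquitin ligases that set the stability of PER and CRY, 7 were higher, by 0.48 (Csnk2b) to 1.55 (Gsk3b). They were Csnk1d, Csnk1e, Csnk2b, Gsk3b, Prkaa2, Btrc and Fbxw11. Over the alternatives run the adjusted p of Prkaa2 reached 0.125 and that of Sirt1, a cofactor, 0.0635 by limma, so these 2 calls were lost in some of them. The log2 difference of Prkaa2 was 0.47 without the library labelled APRIL numbered 1 and 1.91 without that numbered 2, and that of Sirt1 was 0.55 and 1.13. Of 6 cofactors Ncor1 (0.94), Sirt1 (0.84) and Kdm5a (1.79) were higher. Nono, at 187 and 189 TPM against 177 and 175 TPM with saline, did not pass. Of 4 rhythmic outputs the ubiquitin protease Usp2 (2.95), the kinase Wee1 (1.11) and nocturnin (Noct, 0.81) were higher. The NAD-synthesis enzyme Nampt, at 70.7 and 43.4 TPM against 41.7 and 40.9 TPM with saline, did not pass. Neither activator paralogue passed: Npas2 had 1.35 and 5.49 TPM, against 3.20 and 2.67 TPM with saline, and Arntl2 had 9.60 and 10.1 TPM, against 6.43 and 8.80 TPM.

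**Figure D4:**
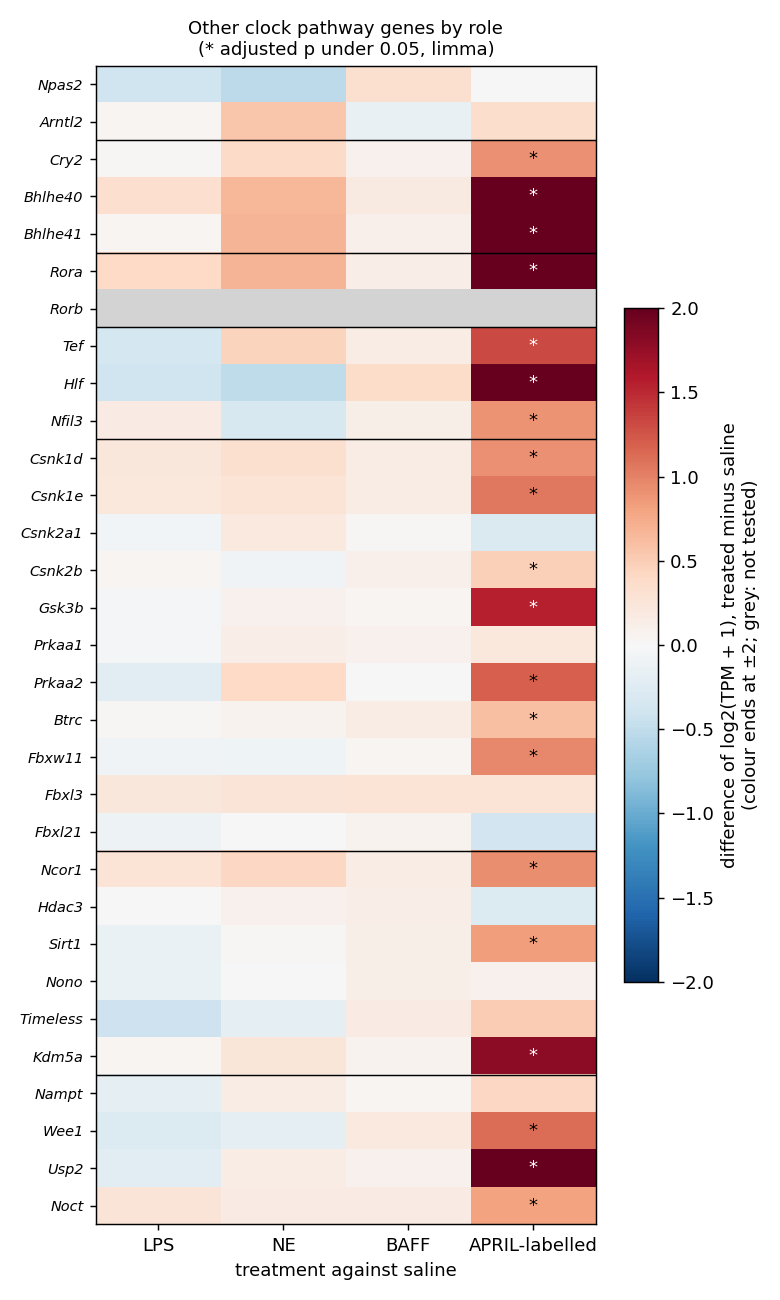
Difference of log2(TPM + 1) from saline (colour, ending at ±2) for 31 of the 32 further clock pathway genes, in rows grouped by role, in the LPS, norepinephrine (NE), BAFF and APRIL-labelled comparisons. Asterisks mark an adjusted p under 0.05 by limma: 20 genes in the libraries labelled APRIL and 0 in the other comparisons; grey marks Rorb, which was too low to test.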

How the data were processed

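Per the file headers each of the 10 deposited files lists TPM for 28987 Ensembl gene IDs, and per the submitters' processing notes the authors used kallisto with mm10; the annotation release, the summing to genes and any filter are not given in the sources used here. Libraries summed to 953553 to 964726 TPM, and depth is unknown. A gene name reference gave symbols for 27458 IDs, and GENCODE M21 gave the positions. The 14166 genes that reached 1 TPM in 2 or more libraries were fitted on log2(TPM + 1) with limma 3.58.1 (trend) in R 4.3.3: 10 libraries, 5 group means, no block, 5 residual degrees of freedom, each treatment against saline, Benjamini-Hochberg over all tested genes at 0.05. A group of 2 is thus assumed to vary like the others. Deviations of same-numbered libraries correlated at 0.272 to 0.479 among the LPS, norepinephrine, BAFF and saline groups and at -0.108 to 0.0264 with the libraries labelled APRIL. The labels do not state what a number marks, and from these values the numbers were taken to pair those 4 groups. The main fit ignores this pairing. Results of a fit with the number as a block are given for the calls it changed and for Rora and Bhlhe41 with norepinephrine. The members, lists and tests were chosen with earlier results of these data known. Named were all members, called genes of the pathway list and its 2 most abundant per role, and the 5 genes most and least correlated with Dbp and with Arntl. For 1 gene of the list no values are reported here. Promoters are from RefSeq (GRCm38.p6); shared 31-base words were counted in GENCODE transcripts. Figures used matplotlib 3.10.9 in Python 3.11.15.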

Additional observations from a re-analysis of the deposited data

How the results depend on the processing

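Over all genes, the count called with LPS (539) was 226 from the 4 compared libraries alone, 922 without the libraries labelled APRIL and 112 to 374 on leaving out each library. With norepinephrine (99) it was 43 with a pseudocount of 0.1, 55 with no filter beyond 1 library above 0, 843 without the libraries labelled APRIL and 0 to 1 on leaving out each library. With BAFF (2) it was 0 with a pseudocount of 0.1, 0 from the 4 libraries alone, 12 with no filter and 2 to 4 on leaving out each library. In the libraries labelled APRIL (8236) it stayed within 1.5 times of that under every alternative run, and the further clock genes called there (20) ranged from 18 to 24. The cause of these shifts was not tested.

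A replicate block gave 167 genes with norepinephrine, 683 with LPS, 2 with BAFF and 8531 in the libraries labelled APRIL. The block was 1 term over all 10 libraries. It thus also covered the libraries labelled APRIL, which did not deviate together with the others by number, and this limits all these counts. Of the further clock genes the block called 1 with norepinephrine, against 0 otherwise, and 21 in the libraries labelled APRIL, Timeless being added. Leaving out the libraries labelled APRIL called 2 with norepinephrine. Among the members the block ended the call of Per3 with LPS and changed no other call.

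Of the members' log2 differences, 120 of 120 alternative values stayed within 1 SD of the reported value with norepinephrine. The same held for 118 of 120 with BAFF, 112 of 120 with LPS and 100 of 110 in the libraries labelled APRIL. Part of this agreement was fixed in advance. The filters, the fits on fewer groups and the balanced replicate block cannot change a difference of group means. The tally therefore overstates how far the values were tested. Sign changed in 3 values with BAFF and 5 with LPS, all of members that were not called.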
